A study of Rattus norvegicus with 15 samples.

Results

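The microRNAs (miRNAs) encoded inside the Hox gene clusters are described here in rat sciatic nerve before and after injury. They were chosen by name, as every array entry that begins with rno-miR-10a, rno-miR-10b or rno-miR-196, and 7 of the 350 rat miRNAs on the array met this rule. Total RNA of sciatic nerve from adult male rats was hybridised to 15 arrays. They make up 5 groups of 3: nerve taken 1, 4, 7 or 14 days after injury, and nerve without injury (day 0). No rat strain was named, and no genetic change or drug was listed for any group. The labels describe the injury in more than one way, as a crush or a resection, and the tissue as a proximal stump or as the damaged section, so "injured" covers both wordings here. Nothing in the labels says that the arrays of a group came from separate animals, so p-values measure only the spread between these samples.

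Hox genes encode transcription factors that set position along the head-to-tail axis, and cells of adult tissues keep much of that positional pattern. The miR-10 and miR-196 genes lie between Hox genes, and their miRNAs can lower the output of Hox messages. In mouse embryos miR-196 is known for directing cleavage of the Hoxb8 message. In the rat annotation (RefSeq, GRCr8) the nearest protein-coding Hox genes were found from gene starts alone. A Hox gene that overlaps the miRNA gene would thus also appear as a neighbour. By these starts, Mir10a came between Hoxb5 and Hoxb4 and Mir196c between Hoxb13 and Hoxb9, both on chromosome 10. Mir10b came between the starts of Hoxd4 and Hoxd3 on chromosome 3, and Mir196a between those of Hoxc10 and Hoxc9 on chromosome 7. Mir196b came between the starts of Hoxa9 and Hoxa10 on chromosome 4.

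The mature sequences of the 5 miRNAs that gave a signal are shown because their close likeness bears on what a short probe can tell apart. They are RefSeq sequences on GRCr8, written 5′ to 3′, with the seed (bases 2 to 8, the part that pairs with a target) in capitals.
rno-miR-10a-5p: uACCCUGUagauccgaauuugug
rno-miR-10b-5p: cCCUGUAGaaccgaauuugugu
rno-miR-196a-5p: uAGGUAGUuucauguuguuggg
rno-miR-196b-5p: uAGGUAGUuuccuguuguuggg
rno-miR-196c-5p: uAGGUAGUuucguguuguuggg
Their positions were chr10:81779730-81779752 (plus strand) for miR-10a-5p, chr3:80035886-80035907 (plus) for miR-10b-5p, chr7:135988900-135988921 (plus) for miR-196a-5p, chr4:82661149-82661170 (minus) for miR-196b-5p and chr10:81727561-81727582 (plus) for miR-196c-5p.

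The 3 miR-196 miRNAs shared the seed AGGUAGU, which no other mature rat miRNA in the table had, and were identical at 21 of 22 bases. Counted from the 5′ end, miR-196a differed from miR-196b by A12C and from miR-196c by A12G, and miR-196b differed from miR-196c by C12G. Over 21 aligned bases miR-10a-5p and miR-10b-5p differed by U12A alone, in the numbering of miR-10a-5p. The annotated miR-10b-5p starts 2 bases further in, and its hairpin holds UA just before that start, so a miRNA begun there would carry the miR-10a seed ACCCUGU. How much signal a probe took from a relative was not tested.

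The 5 members rno-miR-10a-5p, rno-miR-10b, rno-miR-196a, rno-miR-196b and rno-miR-196c were detected on 15 of 15 arrays. The other two, the opposite arms miR-10a-3p and miR-196a*, were detected on 0 arrays and were left out of the main tests. Mean intensity of miR-10a-3p lay between -10.5 and 4.16 over the arrays, and that of miR-196a* between -9.75 and -1.41, both around the background.

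Levels below are log2 of the background-subtracted signal over the array's 75th percentile, for which 164 miRNAs with a detection on every array were used. A level cannot be set against that of another miRNA, because probes differ in brightness. Changes are limma fits over the 231 tested miRNAs with standard errors, n = 3 arrays per group, and p-values adjusted by the Benjamini-Hochberg method at a threshold of 0.05. Day 14 replicate 3 had the fewest detections, 172 miRNAs against 200 to 239 on the other arrays. It also had 5.67% outlier spots against 2.66 to 4.17% elsewhere. Day 0 replicate 1 stood apart in muscle miRNAs, with a miR-1 level of 3.12 against -1.52 and -0.76 on the other day 0 arrays. Each of days 0, 1 and 4 had a slide of its own, so slide and group cannot be told apart in the comparisons with day 0. Control spots at the array corners averaged 86.1 to 113 on the 3 day 1 arrays and 868 to 2320 on the others. Negative control spots averaged 136 on day 1 replicate 3 and 32.6 on day 4 replicate 3, against -2.16 to 1.44 on the other arrays. The additive error estimate was 14.8 on day 14 replicate 3 and 2.70 to 5.51 elsewhere. The part of these differences in the members' values was not tested.

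After injury all 5 detected members fell on each of the 4 days, although under 2 other scalings the day 14 change of miR-10a-5p and miR-196c was slightly above 0. The falls were 1.27-fold to 2.17-fold, and in every comparison the 3 injured arrays lay below the 3 day 0 arrays. Falls were common among all tested miRNAs: 43.7% passed the test as lower on day 1, 45.5% on day 4, 45.5% on day 7 and 50.6% on day 14. Groups lay apart in the lower direction for 38.1%, 51.9%, 54.1% and 46.8% of all tested miRNAs on the same days. Lower calls on every one of the 4 days were made for 59 of 231 miRNAs (25.5%), the 5 members among them. The members' median change was -0.70 on day 1, -0.78 on day 4, -0.63 on day 7 and -0.39 on day 14, against -0.26, -0.26, -0.32 and -0.37 for all tested miRNAs. On day 14 the members' median was thus near that of the whole array. Without day 14 replicate 3 the members' medians were -0.49, -0.63, -0.47 and -0.34, against -0.038, -0.11, -0.16 and -0.26 for all miRNAs then tested. In bulk nerve, fewer cells of a type and less of a miRNA per cell cannot be told apart.

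**Figure D1:**
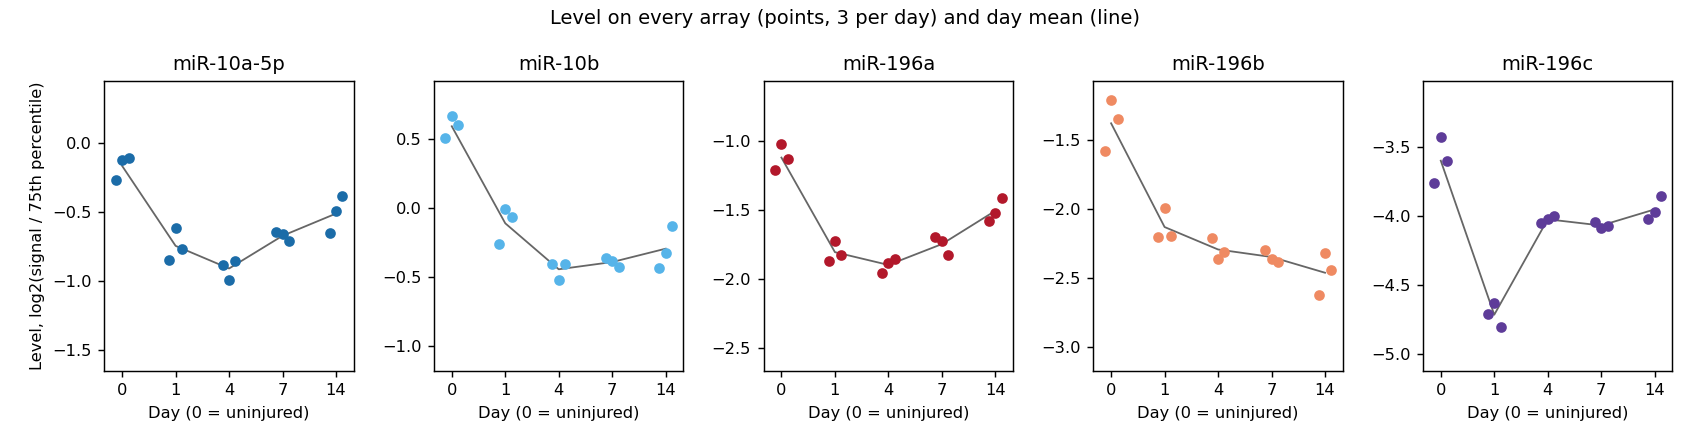
Level of each detected member (log2 of signal over the 75th percentile) on every array against day after injury; points are arrays, 3 per day, and lines join day means. With this scaling all day 0 points lie above all injured points; miR-10a-5p, miR-10b and miR-196a have their lowest day mean on day 4, miR-196b on day 14 and miR-196c on day 1.

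**Figure D2:**
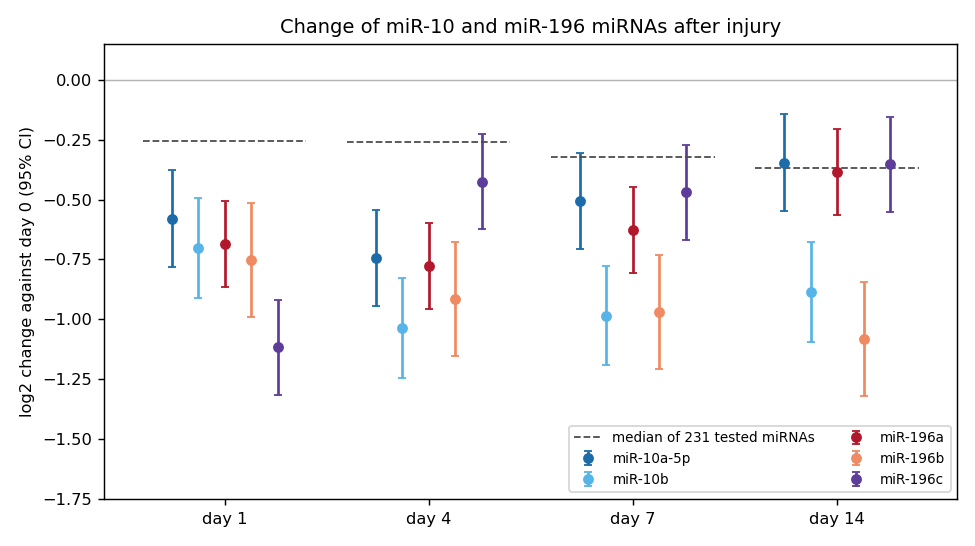
log2 change of each detected member against day 0 on days 1, 4, 7 and 14, with 95% confidence intervals from limma; dashed lines are the median of the 231 tested miRNAs. With this scaling miR-10b and miR-196b stay at -0.70 or lower on all 4 days (in the authors' deposited table miR-196b lies between -0.60 and -0.34), whereas miR-10a-5p, miR-196a and miR-196c lie near the dashed line on day 14; with the percentile over all miRNAs or no scaling, the day 14 changes of miR-10a-5p and miR-196c were 0.00571 to 0.038.

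rno-miR-10b, from the HoxD cluster, showed one of the more lasting falls. Its level was 0.51, 0.67 and 0.61 on day 0, -0.26, -0.00 and -0.06 on day 1, and -0.40, -0.51 and -0.40 on day 4. It was -0.36, -0.38 and -0.43 on day 7 and -0.43, -0.32 and -0.13 on day 14. Every injured array was thus below 0 and every day 0 array above 0.5. The change was -0.70 ± 0.10 on day 1 (limma, adjusted p = 6.07e-05), -1.04 ± 0.10 on day 4 (adjusted p = 1.27e-06), -0.98 ± 0.10 on day 7 (adjusted p = 2.06e-06) and -0.89 ± 0.10 on day 14 (adjusted p = 5.98e-06). On day 4 the miRNA was 2.05-fold lower than on day 0. Before scaling, its mean intensity was 410 on day 4 and 935 on day 0.

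miR-10a-5p, from the HoxB cluster, had a smaller fall. Its level was -0.27, -0.13 and -0.11 on day 0, -0.85, -0.62 and -0.77 on day 1, and -0.89, -0.99 and -0.86 on day 4. It was -0.65, -0.66 and -0.72 on day 7 and -0.66, -0.50 and -0.39 on day 14, where the arrays spread most. The change was -0.58 ± 0.09 on day 1 (limma, adjusted p = 0.000182), -0.74 ± 0.09 on day 4 (adjusted p = 1.3e-05), -0.51 ± 0.09 on day 7 (adjusted p = 0.00034) and -0.35 ± 0.09 on day 14 (adjusted p = 0.00522). Without day 14 replicate 3 the day 1 change was -0.37 (adjusted p = 0.00248); the set of miRNAs used for scaling then also differs.

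miR-196a, from the HoxC cluster, followed a course much like that of miR-10a-5p. Its level was -1.21, -1.02 and -1.13 on day 0, -1.87, -1.72 and -1.83 on day 1, and -1.95, -1.89 and -1.85 on day 4. It was -1.69, -1.72 and -1.82 on day 7 and -1.58, -1.52 and -1.41 on day 14, the injured arrays nearest to day 0. The change was -0.69 ± 0.08 on day 1 (limma, adjusted p = 2.85e-05), -0.78 ± 0.08 on day 4 (adjusted p = 4.9e-06), -0.63 ± 0.08 on day 7 (adjusted p = 2.63e-05) and -0.39 ± 0.08 on day 14 (adjusted p = 0.00134).

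rno-miR-196b, from the HoxA cluster, was lowest on day 14. Its level was -1.58, -1.21 and -1.35 on day 0, -2.20, -1.99 and -2.20 on day 1, and -2.21, -2.36 and -2.31 on day 4. It was -2.30, -2.36 and -2.38 on day 7 and -2.63, -2.32 and -2.44 on day 14, so days 4, 7 and 14 overlapped in part and day 1 lay between them and day 0. The change was -0.75 ± 0.11 on day 1 (limma, adjusted p = 9.93e-05), -0.91 ± 0.11 on day 4 (adjusted p = 9.12e-06), -0.97 ± 0.11 on day 7 (adjusted p = 5.57e-06) and -1.08 ± 0.11 on day 14 (adjusted p = 3.05e-06), 2.12-fold lower than on day 0.

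rno-miR-196c, the other HoxB member, fell most on day 1. Its level was -3.76, -3.43 and -3.61 on day 0, -4.71, -4.63 and -4.81 on day 1, and -4.05, -4.02 and -4.00 on day 4. It was -4.05, -4.09 and -4.08 on day 7 and -4.02, -3.98 and -3.86 on day 14. The day 1 arrays lay below all others, and days 4, 7 and 14 lay between them and day 0. The change was -1.12 ± 0.09 on day 1 (limma, adjusted p = 8.44e-07), 2.17-fold lower and sixth lowest of the 231 tested miRNAs. With normexp background correction, which adds an offset of 50 to the signal, the day 1 change was -0.32 (adjusted p = 0.00202), beside -0.15 on day 4 and -0.27 on day 7. It was -0.42 ± 0.09 on day 4 (adjusted p = 0.00114), -0.47 ± 0.09 on day 7 (adjusted p = 0.000526) and -0.35 ± 0.09 on day 14 (adjusted p = 0.00438). Without day 14 replicate 3 the changes on days 4 and 7 were -0.28 (adjusted p = 0.0199) and -0.31 (adjusted p = 0.0123). Its mean intensity before scaling was 21.3 on day 1 and 51.1 on day 0.

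The calls against day 0 for miR-10b and miR-196b held under every alternative run, while those of the other three on day 14 depended on the setting. The sizes moved as well. For miR-196b the authors' deposited table gave -0.34, -0.47, -0.51 and -0.60 on days 1, 4, 7 and 14, and quantile normalization gave -0.45, -0.52, -0.56 and -0.64. For miR-10b the percentile over all miRNAs gave -0.62 on day 7 and -0.53 on day 14, and leaving out day 14 replicate 3 gave -0.49 on day 1. For miR-196a the deposited table gave -0.38, -0.36, -0.29 and -0.19, and for miR-10a-5p the percentile over all miRNAs gave -0.43 on day 4 and -0.14 on day 7 (adjusted p = 0.0288). With the 75th percentile taken over all miRNAs, the day 14 change was 0.013 for miR-10a-5p, -0.027 for miR-196a and 0.00571 for miR-196c (adjusted p = 0.828, 0.748 and 0.949). With that scaling the median of all tested miRNAs was -0.01 on day 14 in place of -0.37, and 70 miRNAs were called higher and 54 lower, in place of 37 and 117. With no scaling at all the day 14 changes were 0.038, -0.00211 and 0.030 in the same order, and none passed. miR-196c also lost its call with the percentile over all miRNAs on day 4 (-0.11, adjusted p = 0.247) and day 7 (-0.11, adjusted p = 0.274), and on day 4 with normexp background correction (-0.15, adjusted p = 0.078). On day 14 it lost the call with quantile normalization (-0.14, adjusted p = 0.187) and in the authors' deposited table (-0.09, adjusted p = 0.651) as well. In a fit of the 2 groups alone, miR-10a-5p (adjusted p = 0.0572) and miR-196c (adjusted p = 0.0607) missed the threshold on day 14 at unchanged sizes.

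Between day 1 and day 4 the members moved in different directions. miR-196c rose by 0.69 ± 0.09 on day 4 relative to day 1 (limma, adjusted p = 5.68e-05), with a mean level of -4.03 on day 4 and -4.72 on day 1. miR-10b fell by a further 0.33 ± 0.10 (adjusted p = 0.0118), with a mean of -0.44 on day 4 and -0.11 on day 1. The other three differed by -0.16 (miR-10a-5p), -0.09 (miR-196a) and -0.16 (miR-196b) and did not pass the test. Of all tested miRNAs, 27.7% were called higher and 23.8% lower in this comparison. The day 4 arrays lay above the day 1 arrays for miR-196c, as they did for 28.6% of all miRNAs, and below them for miR-10b, as for 32% of all. With normexp the difference of miR-196c was 0.17 (adjusted p = 0.0777), and without day 4 replicate 2 that of miR-10b was -0.30 (adjusted p = 0.0521).

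From day 4 onwards no further step passed the test with the main scaling, but some did under other settings. In the deposited table miR-10a-5p was called higher on day 7 relative to day 4 (0.25, limma, adjusted p = 0.0184). With a higher floor miR-196a was called higher on day 14 relative to day 7 (0.24, limma, adjusted p = 0.0281). The values that follow are those of the main scaling. On day 7 relative to day 4 the differences of the 5 members lay between -0.05 and 0.24, and 6.06% of all tested miRNAs were called. On day 14 relative to day 7 they lay between -0.11 (miR-196b) and 0.24 (miR-196a, adjusted p = 0.0711), and 13.9% of all were called. Day 7 and 2 of the day 14 arrays shared a slide, and within it, or with slide as a fixed block, the differences were 0.10 for miR-10a-5p, 0.01 for miR-10b, 0.20 for miR-196a, -0.13 for miR-196b and 0.07 for miR-196c. Over the whole time course the limma F test called all 5 members, with F between 18.2 for miR-10a-5p and 38.6 for miR-196c, as it did 86.1% of all tested miRNAs.

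Each detected member was read by at least 2 probes. The 2 probes of miR-10b read -0.83 and -0.68 on day 1 and -1.02 and -1.04 on day 4. Those of miR-196b read -0.64 and -0.80 on day 1 and -1.09 and -1.08 on day 14. Those of miR-10a-5p read -0.58 and -0.58 on day 1 and -0.42 and -0.55 on day 7. Among the members with 2 probes, these differed by at most 0.16 on any day. Of the 4 probes of miR-196c, 1 stayed at an intensity of 8.68 or less on every array and gave no usable change. The other 3 read -1.56, -1.08 and -1.09 on day 1 and -0.41, -0.42 and -0.45 on day 4. The deep day 1 fall and the smaller later one thus appeared in all 3, read on the same arrays. The probe at -1.56 had intensities of only 9.62 to 10.3 on day 1, where the additive error estimate was 3.44 to 4.60. The unusable probe still counted in the mean intensity of miR-196c.

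**Figure D3:**
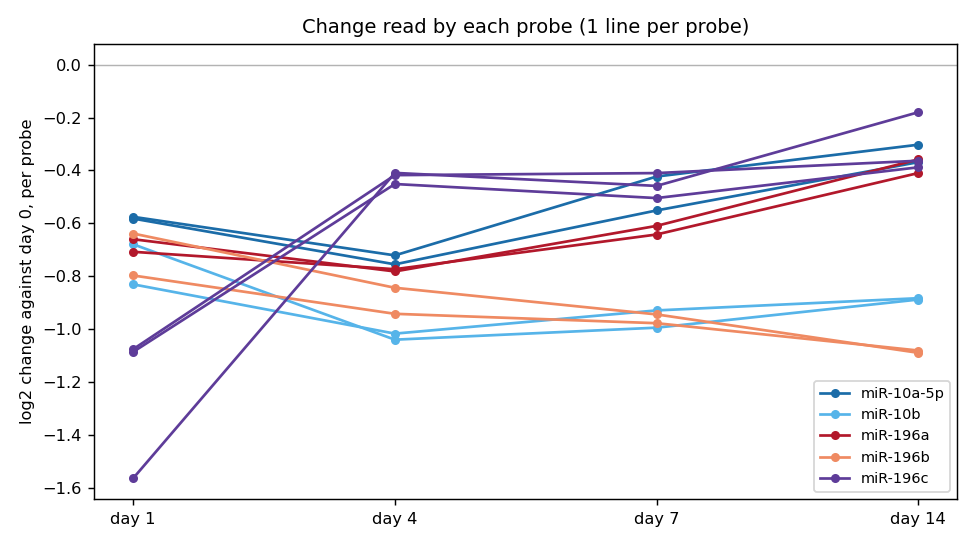
log2 change of each probe against day 0 on days 1, 4, 7 and 14, 1 line per probe, coloured by miRNA; the mean over 3 arrays is plotted and the dim probe of miR-196c is left out. The 3 usable miR-196c probes run from -1.56 to -1.08 on day 1 and from -0.45 to -0.41 on day 4, and the 2 probes of each other miRNA differ by at most 0.16.

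The log2 ratio of a pair of members within an array does not change with a scaling factor, so it can show whether their levels differed unequally between arrays. The day 0 arrays shared their slide and scan day with no other group. Slide and injury thus cannot be told apart in the ratios either. All 10 pairs of the detected members were tested, 12 injured arrays against 3 day 0 arrays, by a two-sided exact permutation test whose smallest possible p is 0.0044, adjusted over the 10 pairs. A single day cannot be tested, since 3 arrays against 3 cannot go below 0.10. The test was passed by 2 pairs.

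miR-10a-5p relative to miR-10b was higher by 0.36 in injured nerve than on day 0 (exact p = 0.0044, adjusted p = 0.022), and all 12 injured arrays exceeded all 3 day 0 arrays. The ratio averaged -0.76 ± 0.04 on day 0, -0.64 ± 0.06 on day 1, -0.47 ± 0.02 on day 4, -0.29 ± 0.0047 on day 7 and -0.22 ± 0.04 on day 14 (SD, n = 3 each). The order of the day means thus followed time.

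miR-10a-5p relative to miR-196b was higher by 0.39 (exact p = 0.0044, adjusted p = 0.022), again on 12 of 12 injured arrays. Its day means were 1.21 ± 0.11, 1.38 ± 0.04, 1.38 ± 0.07, 1.67 ± 0.03 and 1.95 ± 0.12 from day 0 to day 14 (SD, n = 3 each). Both results missed the threshold after quantile normalization, at 0.304 (adjusted p = 0.147) and 0.069 (adjusted p = 0.791), and in the authors' deposited table, at 0.301 (adjusted p = 0.176) and -0.00219 (adjusted p = 0.954). Without day 0 replicate 1, 2 or 3 the adjusted p of both was 0.0733, 0.11 and 0.11. Fewer arrangements exist then, and a few pairs at the smallest possible p cannot pass after adjustment, so these misses decide nothing. The differences were then 0.35, 0.34 and 0.38 for miR-10a-5p to miR-10b, and 0.43, 0.32 and 0.40 for miR-10a-5p to miR-196b.

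Within the miR-196 family, miR-196a relative to miR-196b was higher by 0.31 in injured nerve, which did not pass after adjustment (exact p = 0.0352, adjusted p = 0.0879). Its 3 day 14 values, 1.04, 0.80 and 1.02, lay above the 3 day 0 values, 0.37, 0.19 and 0.22, while those of day 1 overlapped day 0. miR-196a relative to miR-196c differed by -0.03 over all injured arrays (exact p = 0.866, adjusted p = 0.875), but the days differed in direction. Its values were 2.84, 2.91 and 2.98 on day 1 and 2.10, 2.14 and 2.15 on day 4, above and below the day 0 values of 2.56, 2.41 and 2.48.

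**Figure D4:**
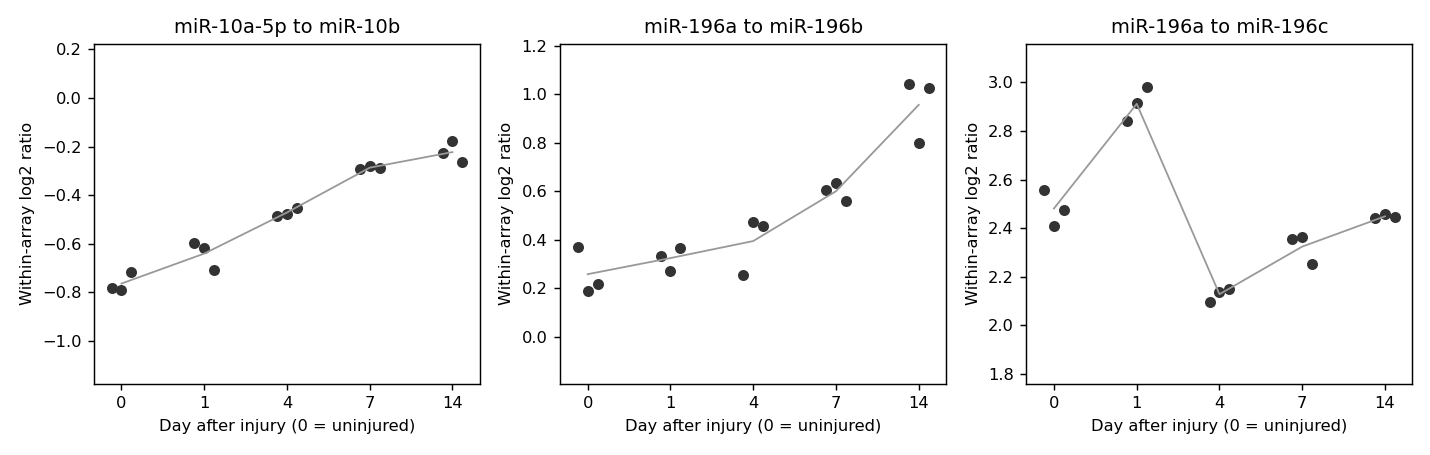
Within-array log2 ratio of 3 pairs of members on every array against day after injury; points are arrays, 3 per day, and lines join day means. The ratio of miR-10a-5p to miR-10b has higher day means at each later time, that of miR-196a to miR-196b is highest on day 14, and that of miR-196a to miR-196c is highest on day 1 and lowest on day 4.

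Across the 15 arrays the levels of miR-10a-5p and miR-196a had a Pearson r of 0.974 and those of miR-10b and miR-196b 0.945, while miR-196c had r of 0.436 to 0.708 with the others. These values describe points that share the arrays, slides and scaling. Of 226 other tested miRNAs, miR-151 (r = 0.979), let-7e (0.975) and miR-195 (0.968) were most like miR-10a-5p, and let-7a (0.983), miR-26b (0.975) and let-7f (0.972) most like miR-10b. Those most like miR-196a were miR-195 (0.964), miR-151 (0.962) and let-7e (0.955), and those most like miR-196b were miR-340-3p (0.981), miR-148b-3p (0.977) and miR-152 (0.974). miR-196c was most like miR-299 (0.923), miR-322* (0.916) and miR-450a (0.914). The day 1 changes of these last were -0.93, -0.77 and -1.003, against -0.49, -0.28 and -0.31 on day 4. They were picked for their likeness over these same arrays, so a shared course is no separate result. On days 7 and 14 miR-322* (-0.15 and -0.02) and miR-450a (-0.10 and -0.15) did not pass the test, whereas miR-299 did (-0.36 and -0.47). The mean of the 5 members was most like let-7b (0.962), let-7i (0.962), let-7e (0.960), miR-151 (0.958) and let-7f (0.938).

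miR-99a, miR-99b and miR-100 are related to miR-10 in sequence but do not lie in Hox clusters. The mature miR-100 is printed to show how near it comes, again with the seed in capitals (RefSeq GRCr8, chr8:50798307-50798328, plus strand).
rno-miR-100-5p: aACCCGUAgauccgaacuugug
Aligned over 22 bases with a shift of 1 base and no gap allowed, the 2 differed by C3A, U6C and U18C, in the numbering of miR-10a-5p. Counted from the 5′ end without that shift, both read ACCC at bases 2 to 5. An alignment with a gap was not made. The change of miR-100 was -0.61 on day 1, -1.02 on day 4, -1.22 on day 7 and -0.97 on day 14. That of miR-99a was -0.61, -1.11, -1.42 and -1.39 on the same days, and all 8 passed the test. miR-99b changed less: -0.22 (adjusted p = 0.13) on day 1, -0.29 (0.0426) on day 4, -0.32 (0.0316) on day 7 and -0.23 (0.108) on day 14. With their star arms, 5 relatives were tested, of which 3, 4, 4 and 3 were called lower and 1, 1, 1 and 0 higher on days 1, 4, 7 and 14. Their partners miR-125a-5p and miR-125b-5p, from the same miRNA clusters as these relatives, had 2, 1, 1 and 1 of 2 called lower. The 1 relative called higher was miR-99b*, not detected on any day 0 array, with levels of -7.48, -8.11 and -7.26 there. The floor was -8.11. This star arm entered the test only because all 3 day 4 arrays detected it, so its rise is not read as an opposite change.

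Counts called among these relatives, and among miRNAs that mark other cells, stand beside calls that were common on the whole array. Of all tested miRNAs 43.7%, 45.5%, 45.5% and 50.6% were called lower on days 1, 4, 7 and 14. Called higher were 39, 47, 40 and 37 of 231. A count such as 2 of 4 lower is near the share of the whole array. Of 4 miRNAs of myelinating glia, 3, 3, 3 and 4 fell on days 1, 4, 7 and 14. The log2 of their summed level was 4.08 to 4.69 on day 0, 3.47 to 3.88 on day 1, 3.13 to 3.36 on day 4, 3.15 to 3.29 on day 7 and 3.36 to 3.80 on day 14. Of 4 leukocyte miRNAs, 3, 3, 3 and 2 rose and 0, 1, 1 and 1 fell, with summed levels of 1.56 to 2.02 on day 1 and 0.50 to 0.76 on day 0. Of 4 smooth muscle and fibroblast miRNAs, 2, 3, 2 and 2 fell and 1 rose on each day. Their summed levels were 3.20 to 3.38 on day 0, 2.74 to 2.89 on day 1 and 2.93 to 3.05 on day 4. They were 3.14 to 3.23 on day 7, which overlapped day 0, and 3.08 to 3.16 on day 14. Of 4 neuronal miRNAs 2, 2, 3 and 3 fell and 1 rose on day 1, and of 2 endothelial miRNAs 2, 1, 1 and 2 fell. Of 2 erythrocyte miRNAs 1 rose on day 1 and 1 fell on day 14. Of 6 epithelial miRNAs, 4 were not detected in any group. The 5 muscle miRNAs summed to -0.44 to 4.03 on day 0, the highest on replicate 1. On days 1 and 14 their sums, 0.73 to 1.99 and -0.18 to 1.16, lay inside that range. The sums were -1.14 to -0.84 on day 4 and -1.89 to -0.24 on day 7. Without day 0 replicate 1, all 5 members were still called lower on each day, with median changes of -0.74, -0.82, -0.67 and -0.44. Of all 231 tested miRNAs, 111, 110, 111 and 121 were then called lower, and their median changes were -0.32, -0.32, -0.36 and -0.42. The part of the other cell types in the members' changes was not tested.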

How the data were processed

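One-colour Agilent miRNA arrays were deposited as scanner output, with spot intensity values that Agilent Feature Extraction (version 10.7.3.1) had background-subtracted without scaling between arrays, per the file headers. The authors also deposited a value table, log2 judging by its numbers, whose method is not given in the sources used here; its column median was 4.12 on 14 arrays and 0.834 on day 14 replicate 3, and it served as an alternative.

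Outlier and control spots were left out, and intensity was averaged over spots of a probe and then over probes of a miRNA. Arrays were divided by the 75th percentile over the 164 miRNAs that every array detected, floored at 0.00362 and log2-transformed. A miRNA was tested if some group had it detected on each of its 3 arrays, which left 231. They were fitted with limma 3.58.1 (R 4.3.3) in a model of 5 group means, two-sided, with Benjamini-Hochberg adjustment over all of them within a comparison. The limma step was tested on simulated data. A change per probe needed an intensity above 5. Ratios of members were tested with exact permutation (scipy 1.17.1). The number of arrays limits the precision.

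The miRNAs named are the members by the name rule, the miR-99 and miR-100 relatives, and the 5 miRNAs (3 per member) with the highest Pearson r over the arrays. Members and lists were chosen with earlier results of these data known. Alternatives covered scaling, source of values, background correction (normexp with offset 50 on median signals), detection filter, floor, probe summary, slide, scan day and replicate blocks, and leaving out arrays. Replicate numbers did not pair the samples. Sequences and neighbouring genes are from RefSeq (GRCr8); no genome of the array's build was used. rno-miR-615, also of the Hox clusters, had no entry under that name on the array and so could not be analysed.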

Additional observations from a re-analysis of the deposited data

Results flagged for a closer look

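For 2 members the effect against day 0 differed between day 1 and day 4 by limma's test of the difference itself. The change of rno-miR-10b on day 4 minus that on day 1 was -0.33 (adjusted p = 0.0118). That of rno-miR-196c was 0.69 (adjusted p = 5.68e-05). All 3 day 4 arrays lay below the day 1 arrays for miR-10b and above them for miR-196c. Both were common: of all tested miRNAs, 23.8% were called lower and 27.7% higher in this comparison. The day 4 arrays lay below the day 1 arrays for 32% of all and above them for 28.6%. Day 1 and day 4 lay on different slides that held no other group, and were scanned on different days, so slide and day after injury cannot be told apart in either result. With normexp the value for miR-196c was 0.17 (adjusted p = 0.0777).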

How the results depend on the processing

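All 5 detected members kept their falls and calls on days 1, 4, 7 and 14 under several settings. These were the total gene signal, no detection filter, only miRNAs detected on all 15 arrays, a higher floor and the median over probes. The same held with each array left out in turn. Slide or scan day as a random block also left these calls unchanged. Neither block could separate slide or scan day from injury, because the day 0 arrays shared their slide and scan day with no other group. With a replicate block 5 members were called on each day, and 147, 156, 151 and 156 miRNAs in all on days 1, 4, 7 and 14; the block changed no member's call. Same-numbered arrays deviated together no more than others (median r of -0.05 over 30 pairs, against 0.02 over 60), so the numbers were not taken as pairs. With no detection filter 6 members were called on day 1, 1 of them as higher. That was miR-10a-3p, detected on no array, with a mean level of -7.37 on day 1 and the floor of -8.11 on day 0.

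Called members on day 14 numbered 2 with the percentile over all miRNAs, 2 with no scaling and 3 with only the 2 groups compared, where miR-10a-5p (-0.35, adjusted p = 0.0572) and miR-196c (-0.35, adjusted p = 0.0607) lost their calls at the same size. The signs of miR-10a-5p and miR-196c turned with the percentile over all miRNAs (0.013 and 0.00571) and with no scaling (0.038 and 0.030). Median changes of all miRNAs on days 1, 4, 7 and 14 were -0.08, 0.05, 0.04 and -0.01 with the percentile over all miRNAs, -0.07, -0.13, -0.10 and -0.10 with quantile normalization, and -0.39, -0.41, -0.22 and 0.02 with no scaling. Higher and lower calls on these days were 57 and 85, 74 and 74, 82 and 63, and 70 and 54 with the percentile over all miRNAs, 57 and 87, 68 and 87, 59 and 74, and 60 and 84 with quantile normalization, and 48 and 61, 61 and 76, 55 and 61, and 54 and 69 in the deposited table, in place of 39 and 101, 47 and 105, 40 and 105, and 37 and 117. With no scaling they were 32 and 127, 33 and 124, 42 and 87, and 64 and 42, and without day 14 replicate 3 they were 58 and 68, 63 and 86, 56 and 87, and 45 and 92.

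For day 4 against day 1, 1 member was called with no scaling and 1 with normexp, which called 79 miRNAs in all in place of 119; leaving out single arrays gave 1 to 3 members (1 without day 4 replicate 2). miR-196a turned to 0.046 (percentile over all miRNAs), 0.094 (quantile) and 0.024 (deposited table). For day 7 against day 4, all calls numbered 22 (percentile over all), 33 (quantile), 31 (no scaling), 22 (deposited table), 5 (detected on all 15 arrays) and 74 (2 groups only) in place of 14, and 5 to 18 with an array left out, with under 10 without day 4 replicate 1 or 3 or any 1 day 7 array. One member, miR-10a-5p, was called as higher under the first 4 of these and with the 2 groups only (1 each). miR-196c turned to 0.0036, 0.040, 0.21 and 0.057 under those first 4, and miR-196b to 0.20 with no scaling.

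For day 14 against day 7, all calls numbered 62 (percentile over all), 82 (no scaling), 21 (deposited table), 18 (detected on all 15 arrays), 15 (slide as a fixed block) and 14 (shared slide only) in place of 32, and 11 to 45 with an array left out, with the lowest values, 14, 11 and 20, without day 7 replicate 1, 2 or 3. Members called numbered 2 (percentile over all), 3 (no scaling), 1 (total gene signal), 1 (no detection filter) and 1 (higher floor), and 0 to 1 with an array left out (1, miR-196a, without day 14 replicate 1). Signs turned for miR-10a-5p (-0.040 quantile, -0.023 deposited table), miR-10b (-0.0072 quantile, -0.053 without day 14 replicate 3, alone or with day 0 replicate 1), miR-196b (0.17 no scaling) and miR-196c (-0.014 normexp).

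The ratio of miR-10a-5p to miR-10b was 0.30 (quantile), 0.30 (deposited table), 0.34 (without day 0 replicate 1 and day 14 replicate 3) and 0.34 to 0.39 without single arrays; that of miR-10a-5p to miR-196b was 0.069, -0.00219, 0.39 and 0.32 to 0.43 in the same order, and 0.22 with normexp. All of these missed the threshold except 12 of the 15 single-array fits of each. The single-array fits that missed left out a day 0 array, as did the fit without both named arrays. There a few pairs at the smallest possible p cannot pass after adjustment. Under quantile normalization the ratio of miR-10a-5p to miR-196a turned to -0.078, of miR-10b to miR-196b to -0.23 and of miR-196a to miR-196c to 0.13. In the deposited table the same 3 were -0.17, -0.30 and 0.33, and miR-196b to miR-196c was 0.15. With the total gene signal miR-196a to miR-196c was 0.023, and without both named arrays 0.011. With normexp miR-10a-5p to miR-196c was -0.20 and miR-10b to miR-196b -0.11, and 4 pairs newly passed: miR-10b to miR-196a (-0.32), miR-10b to miR-196c (-0.54), miR-196a to miR-196c (-0.22) and miR-196b to miR-196c (-0.43). Without single arrays the ranges were -0.016 to 0.088 (miR-10a-5p to miR-196c), -0.31 to -0.26 (miR-10b to miR-196a, past the threshold without day 1 replicate 3), -0.022 to 0.085 (miR-10b to miR-196b) and -0.076 to 0.0099 (miR-196a to miR-196c). The causes of these shifts were not tested, apart from the smaller number of arrays or miRNAs where some were left out.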
